A study of Homo sapiens with 6 samples.

Results

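The proteasome subunit genes were examined in MCF-10A cells, an immortalized non-tumorigenic human mammary epithelial line, infected with a lentivirus carrying MBD2 and compared with control MCF-10A cells. Members were all genes whose symbol is PSM followed by the letter A, B, C, D or E and a number and that were read by a probe set with exactly 1 gene symbol, leaving out PSMB8 and PSMB9. Each gene was represented by its brightest probe set (mean of the 6 arrays). This gave 35 of the 19775 genes tested: 7 genes of the alpha ring, 8 of the beta ring, 5 ATPases, 9 other subunits of the regulatory particle, 3 chaperones of its base and 3 genes of activators that cap the core. PSMA6 and PSME2 were read only by probe sets shared with other symbols and were not analysed here. Apart from the choice of probe set, no measured value entered this rule.

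The proteasome degrades proteins that carry ubiquitin chains. Its core particle is a barrel of alpha and beta rings in which subunits of the inner beta rings cut the substrate, and the regulatory particle on the end of the barrel recognizes the chain, removes it, and unfolds and threads the substrate with a ring of ATPases. Most cells make the subunits in balanced amounts, and when the proteasome is inhibited the transcription factor NFE2L1 raises their transcription together. Levels were mRNA hybridization signals, so neither protein amounts nor proteolytic activity were measured.

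MBD2 binds methylated CpG sites, and the comparison addressed which genes differed in expression when it was overexpressed. The tested cells were MCF-10A infected with MBD2 lentivirus packaged in HEK293 cells (3 arrays, MBD2 arrays 1 to 3), and the controls were MCF-10A without MBD2 (3 arrays, control arrays 1 to 3). The labels describe the controls as not infected and the replicates as technical, while the study's methods describe an empty virus and biological replicates. P-values therefore measure the spread between these arrays only, which may be technical, and an effect of infection itself cannot be told apart from that of MBD2. The promoter that drives MBD2 in the virus was not given in the sources used here.

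MBD2 itself read 12.17, 11.72 and 12.50 on the MBD2 arrays, against 8.92, 9.03 and 9.68 on the control arrays, in log2 units of RMA signal. The groups did not overlap, and the mean was 2.92 ± 0.28 higher (log2, SE) in MBD2 cells, with an adjusted p of 0.0119 (limma, Benjamini-Hochberg across all genes). The call was lost when MBD2 array 3 was left out (adjusted p 0.0664, limma) and when control array 1 or 2 was (0.076 and 0.0838). Probe sets of MBD2 did not all read this difference: it was 0.73 with all of them averaged and 0.11 on the brightest one whose name marks no shared sequence. Of the 10 markers of basal mammary epithelium, 6 were read by a probe set of 1 symbol and lay between 8.04 and 14.37. The 5 endothelial markers lay between 3.54 and 6.14, and the 3 markers of HEK293, the packaging line, between 3.17 and 4.09.

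The arrays of each group were not equally alike, and this bears on every proteasome value. MBD2 arrays 1 and 2 differed by more than 2-fold at 2877 genes and MBD2 arrays 1 and 3 at 2565 genes, while MBD2 arrays 2 and 3 did so at 95. Control array 3 stood apart from control arrays 1 and 2 at 1572 and 1571 genes, and control arrays 1 and 2 differed by that much at 5. Results are therefore given array by array. In a bulk RNA sample, fewer cells of a type and less RNA per cell cannot be told apart.

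No proteasome subunit passed the test between MBD2 and control cells. With a limma adjusted p under 0.05 and a fold of at least 1.5 required, 0 of 35 members were higher, where 1.25% of all genes were, and 0 were lower, where 1.5% were. Without the fold requirement both counts were again 0 (1.26% and 1.51% of all genes). At an unadjusted limma p under 0.05, 4 members were higher (PSMD2, PSMD14, PSMD9 and PSMD1, 8.69% of all genes) and 0 were lower (9.59% of all genes). The lowest adjusted p among the members was 0.0734, that of PSMD2. The fold change was above 0 for 29 of 35 members, against 47.0% of all genes, with a median log2 fold change of 0.34 in the members and -0.02 over all genes. The precision was limited: the 95% interval of 30 members reached a 1.5-fold difference in at least 1 direction, and for 16 members it left out both a 2-fold higher and a 2-fold lower level.

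**Figure D1:**
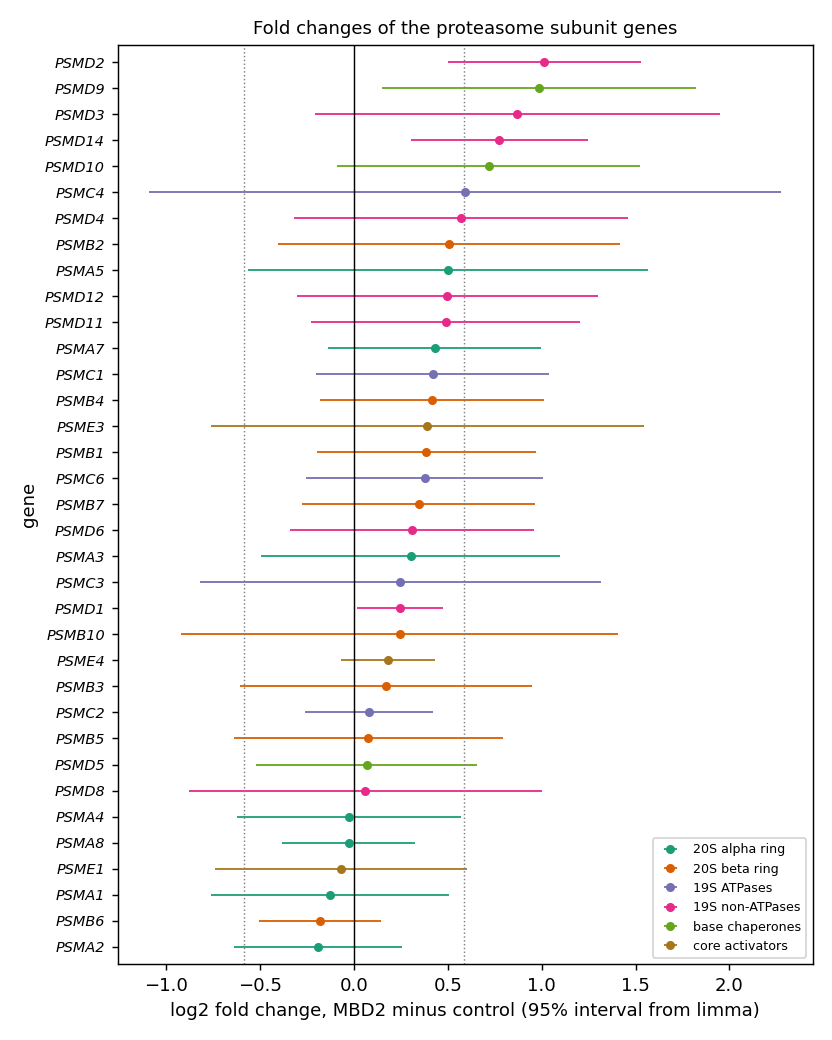
Log2 fold change (MBD2 minus control, limma) of each of the 35 proteasome genes, coloured by subcomplex, with its 95% interval from 3 arrays per group, dotted lines marking a 1.5-fold difference. PSMD2 stands farthest right at 1.01, PSMA2 lies lowest at -0.19, and 29 of 35 points lie above 0.

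The MBD2 arrays differed among themselves at most members. MBD2 arrays 2 and 3 both lay above every control array at 28 of 35 members, against 25.9% of all genes, and both below at 0 (24.4% of all genes). MBD2 array 1 lay below every control array at 25 members (38.1% of all genes) and above every control array at only 5 (23.4%). As a difference from the control mean, the median over the members was -0.27 on MBD2 array 1, 0.70 on MBD2 array 2 and 0.63 on MBD2 array 3, against -0.06, -0.09 and 0.15 on control arrays 1, 2 and 3. MBD2 array 1 thus lay on the other side of the controls from MBD2 arrays 2 and 3 at most members.

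MBD2 array 1 read lower than both other MBD2 arrays at 34 of 35 members (49.0% of all genes), PSME4 being the exception. At 27 members it was lower by at least 1.5-fold (14.7% of all genes), and the median fold of the mean of MBD2 arrays 2 and 3 over MBD2 array 1 was 1.82. The range over the MBD2 arrays had a median of 0.92 log2 units across members, against 0.26 over the control arrays, and was the wider of the pair at 32 members. Over all genes these medians were 0.36 and 0.33. The proteasome genes therefore varied more among MBD2 arrays than genes at large, as a description of these arrays, while their control arrays lay closer together. Genes at large were not matched to the members for signal level.

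**Figure D2:**
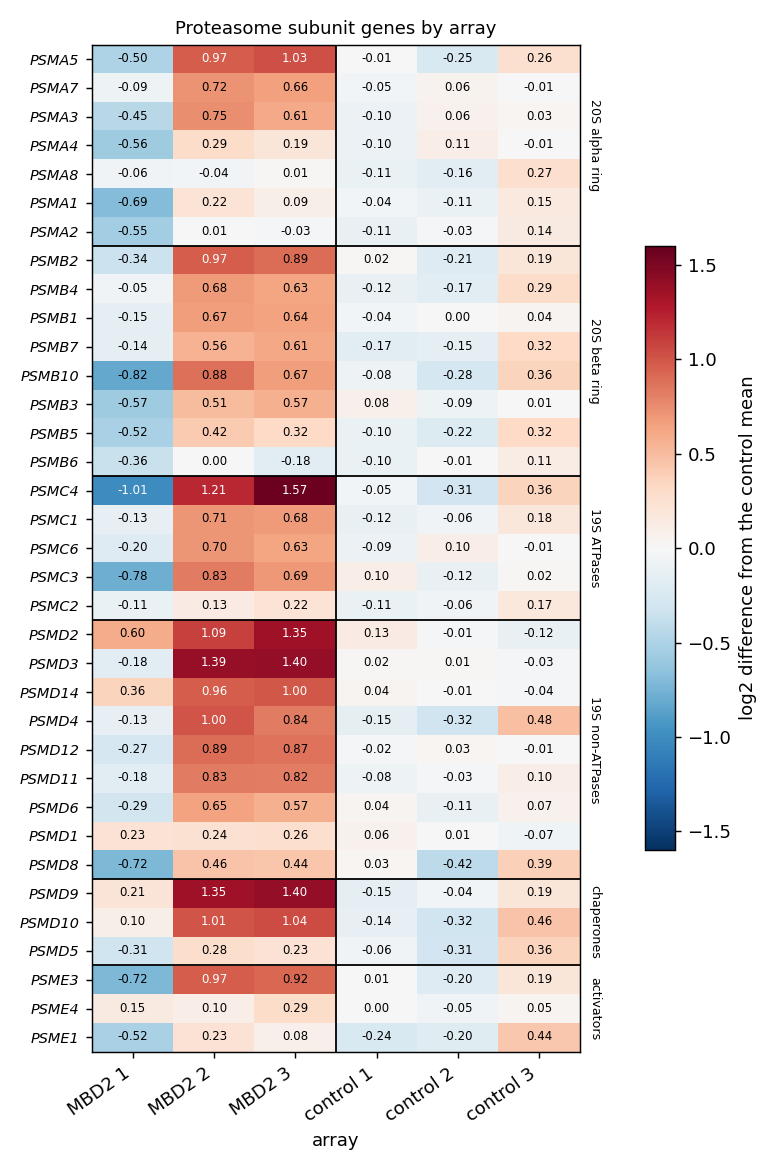
Log2 value minus the control mean for the 35 proteasome genes (rows, by subcomplex) on the 3 MBD2 arrays and the 3 control arrays (columns). MBD2 arrays 2 and 3 are above the control mean at most rows, MBD2 array 1 is below it at most rows, and the median over rows is -0.27, 0.70 and 0.63 on MBD2 arrays 1 to 3.

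The members that were above every control array on all 3 MBD2 arrays were PSMD2, PSMD14, PSMD9, PSMD1 and PSME4, 5 of 35 where 10.4% of all genes did so, and 0 members lay wholly below (14.6% of all genes). PSMD2, a scaffold of the base that docks ubiquitin receptors and shuttles, read 11.67, 12.17 and 12.42 in MBD2 cells, against 11.20, 11.06 and 10.95 in control cells. Its lowest MBD2 array was above its highest control array by more than the whole control range. The difference was 1.01 ± 0.21 (log2, SE), a fold of 2.02 with a 95% interval of 0.50 to 1.53 in log2, and the adjusted p of 0.0734 missed the threshold (limma). Leaving out 1 array at a time gave PSMD2 differences of 0.85 to 1.22 and adjusted p-values of 0.0067 to 0.245 (limma), the lowest without MBD2 array 1. By the rule in the study's methods, a ratio to the control mean over 1.5 on each MBD2 array, PSMD2 was the 1 member that passed (3.47% of all genes), and 0 had a ratio under 0.5 on each (1.81%).

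PSMD14, the metalloprotease of the lid that cuts ubiquitin chains off the substrate, read 11.66, 12.26 and 12.29 in MBD2 cells, against 11.34, 11.29 and 11.26 in control cells. Its 3 control arrays lay close together and the MBD2 arrays did not reach down to them. The difference was 0.77 ± 0.19 (log2, SE) with an adjusted p of 0.111 (limma). PSMD9, a chaperone that holds ATPases of the base during assembly and leaves before the particle is complete, read 9.37, 10.52 and 10.57 in MBD2 cells, against 9.02, 9.13 and 9.35 in control cells. MBD2 array 1 cleared control array 3 only narrowly. The PSMD9 difference was 0.99 ± 0.34 with an adjusted p of 0.209 (limma).

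PSMD1, the second large scaffold of the base, read 10.88, 10.89 and 10.91 in MBD2 cells, against 10.71, 10.65 and 10.57 in control cells. On this probe set it was the member with the smallest spread among MBD2 arrays, and its difference of 0.25 ± 0.09 (adjusted p 0.248, limma) was small. The other PSMD1 probe set (mean 10.62) differed by 0.55. It read 10.72, 10.96 and 11.02 in MBD2 cells, against 10.54, 10.39 and 10.11 in control cells. PSME4, an activator that caps the core without ATPases and is known for a part in spermatogenesis, read 9.84, 9.80 and 9.98 in MBD2 cells, against 9.70, 9.64 and 9.74 in control cells. The PSME4 difference was 0.18 ± 0.10 with an adjusted p of 0.411 (limma). On another PSME4 probe set (mean 9.29) the groups overlapped, and on its dimmest (mean 7.29) they did not. On the probe sets used, these genes are the few for which MBD2 array 1 did not fall within or under the controls. This depended on the probe set. On another probe set of PSMD11 (mean 7.76), of PSMD12 (mean 9.55) and of PSMB4 (mean 9.41), every MBD2 array also lay above every control array.

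The 250 bases before the RefSeq start site (GRCh38.p14) of PSMD2, PSMD14, PSMD9, PSMD1 and PSME4 are shown. These 5 are the members whose MBD2 and control arrays did not overlap on the probe sets used. Each is written 5′ to 3′ on the gene's strand, with capitals marking matches on either strand to TGACNNNGC, the core of the antioxidant response element that NFE2L1 and NFE2L2 bind, or to CCAAT, the box bound by NF-Y. PSMD2 lies at chr3:184298991-184299240 (plus strand, the first of 2 RefSeq windows), PSMD14 at chr2:161308175-161308424 (plus), PSMD9 at chr12:121888540-121888789 (plus), PSMD1 at chr2:231056617-231056866 (plus) and PSME4 at chr2:53970994-53971243 (minus).
PSMD2: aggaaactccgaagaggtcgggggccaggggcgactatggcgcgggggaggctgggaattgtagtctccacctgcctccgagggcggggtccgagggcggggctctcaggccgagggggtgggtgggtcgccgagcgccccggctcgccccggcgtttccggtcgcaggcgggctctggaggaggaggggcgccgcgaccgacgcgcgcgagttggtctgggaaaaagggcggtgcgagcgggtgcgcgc
PSMD14: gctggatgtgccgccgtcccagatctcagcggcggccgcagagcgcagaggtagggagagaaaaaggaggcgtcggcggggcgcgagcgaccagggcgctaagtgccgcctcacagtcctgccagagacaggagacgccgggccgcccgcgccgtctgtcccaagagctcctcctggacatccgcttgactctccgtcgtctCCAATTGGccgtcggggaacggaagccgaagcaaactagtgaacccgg
PSMD9: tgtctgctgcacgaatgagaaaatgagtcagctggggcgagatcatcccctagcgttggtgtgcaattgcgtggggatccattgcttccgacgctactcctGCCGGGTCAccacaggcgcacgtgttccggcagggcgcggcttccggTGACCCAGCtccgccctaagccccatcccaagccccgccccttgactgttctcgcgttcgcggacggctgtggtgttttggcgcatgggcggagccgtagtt
PSMD1: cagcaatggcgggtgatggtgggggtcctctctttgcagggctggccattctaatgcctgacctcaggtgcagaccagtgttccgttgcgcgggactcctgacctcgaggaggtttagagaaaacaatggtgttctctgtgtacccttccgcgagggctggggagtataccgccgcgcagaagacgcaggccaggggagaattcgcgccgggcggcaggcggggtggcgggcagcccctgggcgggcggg
PSME4: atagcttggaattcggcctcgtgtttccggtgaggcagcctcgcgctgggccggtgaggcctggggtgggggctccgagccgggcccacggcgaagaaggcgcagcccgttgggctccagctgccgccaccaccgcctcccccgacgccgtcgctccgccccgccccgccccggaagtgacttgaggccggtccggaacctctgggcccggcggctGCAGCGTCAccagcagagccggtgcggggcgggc

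The 5 windows did not share either motif. PSMD9 held 2 matches to TGACNNNGC and PSME4 held 1, PSMD14 held 2 matches to CCAAT, 1 on each strand and overlapping, and PSMD2 and PSMD1 held neither. Over all members, 30 of 35 had a RefSeq window, 34 windows in all. TGACNNNGC was in 8 of the 34 windows (23.5%), against 10.9% of all 35116 windows of this length, and CCAAT in 14 (41.2%), against 32.0%. The median log2 fold change was 0.17 in the 8 members with TGACNNNGC and 0.34 in the 22 without, and 0.27 in the 14 with CCAAT and 0.40 in the 16 without. These medians were not tested against each other. A match is a description of letters and not a binding site.

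Among the 7 alpha ring genes, which form the gate of the core, the median log2 fold change was -0.03 and 3 were above 0. Their differences ran from -0.19 for PSMA2 to 0.50 for PSMA5, and 6 of the 7 lay below every control array on MBD2 array 1 (38.1% of all genes). PSMA2 read 10.95, 11.51 and 11.47 in MBD2 cells, against 11.39, 11.47 and 11.64 in control cells, and PSMA1 read 12.03, 12.95 and 12.81, against 12.68, 12.61 and 12.87. MBD2 array 1 lay under the controls at both genes, and MBD2 arrays 2 and 3 lay among them except MBD2 array 2 at PSMA1, which was just above. PSMA4 read 11.54, 12.39 and 12.29 in MBD2 cells, against 12.00, 12.21 and 12.09 in control cells, so that arrays on both sides of the controls averaged to a difference of -0.03. PSMA8, an alpha subunit known from testis, read 3.45, 3.47 and 3.52, against 3.40, 3.34 and 3.78, at about the level of probe sets for transcripts that were not added to the sample (2.93 to 3.67).

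The 8 beta ring genes had a median log2 fold change of 0.29, and 7 were above 0. PSMB5 carries the chymotrypsin-like activity and is the main target of bortezomib, and it read 11.09, 12.03 and 11.93 in MBD2 cells, against 11.51, 11.39 and 11.92 in control cells. MBD2 array 1 was the lowest of the 6, control array 3 matched MBD2 array 3, and the difference was 0.07 with a 95% interval of -0.64 to 0.79. PSMB6, the caspase-like subunit, read 11.18, 11.54 and 11.37 in MBD2 cells, against 11.44, 11.53 and 11.66 in control cells, and was the 1 beta gene with a negative difference (-0.18). PSMB7, the trypsin-like subunit, read 10.95, 11.64 and 11.70, against 10.92, 10.94 and 11.40, a difference of 0.34. The 3 constitutive catalytic subunits thus had small differences of both signs, with adjusted p-values of 0.923, 0.526 and 0.527 for PSMB5, PSMB6 and PSMB7 (limma).

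PSMB10, which replaces PSMB7 in the interferon-induced immunoproteasome, read 5.65, 7.35 and 7.14 in MBD2 cells, against 6.39, 6.19 and 6.83 in control cells. It varied more among the MBD2 arrays (SD 0.93) than between the groups (0.24). The remaining beta genes, PSMB1, PSMB2, PSMB3 and PSMB4, are structural subunits without catalytic sites, and their differences lay between 0.17 for PSMB3 and 0.51 for PSMB2. PSMB1 differed by 0.39, by 0.59 on another bright probe set, and by -0.0148 on its dim probe set (mean 4.26) without shared sequence. Their adjusted p-values lay between 0.424 and 0.827 (limma).

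In the regulatory particle the 9 non-ATPase subunits had a median log2 fold change of 0.50 and all were above 0, from 0.06 for PSMD8 to 1.01 for PSMD2. At all 9 of these genes, MBD2 arrays 2 and 3 both lay above every control array (25.9% of all genes). PSMD3, a structural subunit of the lid, read 5.47, 7.04 and 7.05 in MBD2 cells, against 5.67, 5.66 and 5.62 in control cells. MBD2 array 1 was under the controls while the other MBD2 arrays were more than 2-fold above them, giving a difference of 0.87 ± 0.44 and an adjusted p of 0.36 (limma). PSMD4, a ubiquitin receptor, differed by 0.57, and by 0.55 and 0.67 on other bright probe sets. The difference turned to -0.19 on a dim probe set (mean 4.48) whose name marks no shared sequence. The lid subunits PSMD12, PSMD11 and PSMD6 differed by 0.50, 0.49 and 0.31.

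The 5 ATPases, which unfold the substrate, had a median log2 fold change of 0.38. On MBD2 arrays 2 and 3, 4 of them were above every control array (25.9% of all genes). All 5 lay below every control array on MBD2 array 1 (38.1% of all genes). PSMC2 did so only barely, at 12.4187 against 12.4212 on control array 1, and on its other probe sets MBD2 array 1 lay within the controls. PSMC4 had the widest spread of the members, at 6.13, 8.35 and 8.71 in MBD2 cells, against 7.09, 6.83 and 7.50 in control cells. Its MBD2 arrays fell on both sides of the controls, and its difference of 0.59 had an SE of 0.69. PSMC1, PSMC6, PSMC3 and PSMC2 differed by 0.42, 0.38, 0.25 and 0.08.

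Of the 3 chaperones of the base, PSMD10 (gankyrin, which also binds RB1 and MDM2) read 10.23, 11.13 and 11.17 in MBD2 cells, against 9.99, 9.81 and 10.58 in control cells. MBD2 array 1 lay within the controls, and the difference was 0.72 with an adjusted p of 0.319 (limma). PSMD5 differed by 0.07. Among the activators, PSME3, the nuclear activator that promotes ubiquitin-independent degradation, read 9.11, 10.79 and 10.74, against 9.84, 9.62 and 10.01, and differed by 0.39. PSME1, an interferon-induced activator subunit, read 9.50, 10.25 and 10.10, against 9.78, 9.82 and 10.46, and differed by -0.07. For PSME3 and PSME1 alike MBD2 array 1 was the lowest of the 6 arrays on the probe set used. On each other PSME3 probe set it lay within the range of the control arrays, and the differences were 0.43 to 0.55.

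**Figure D3:**
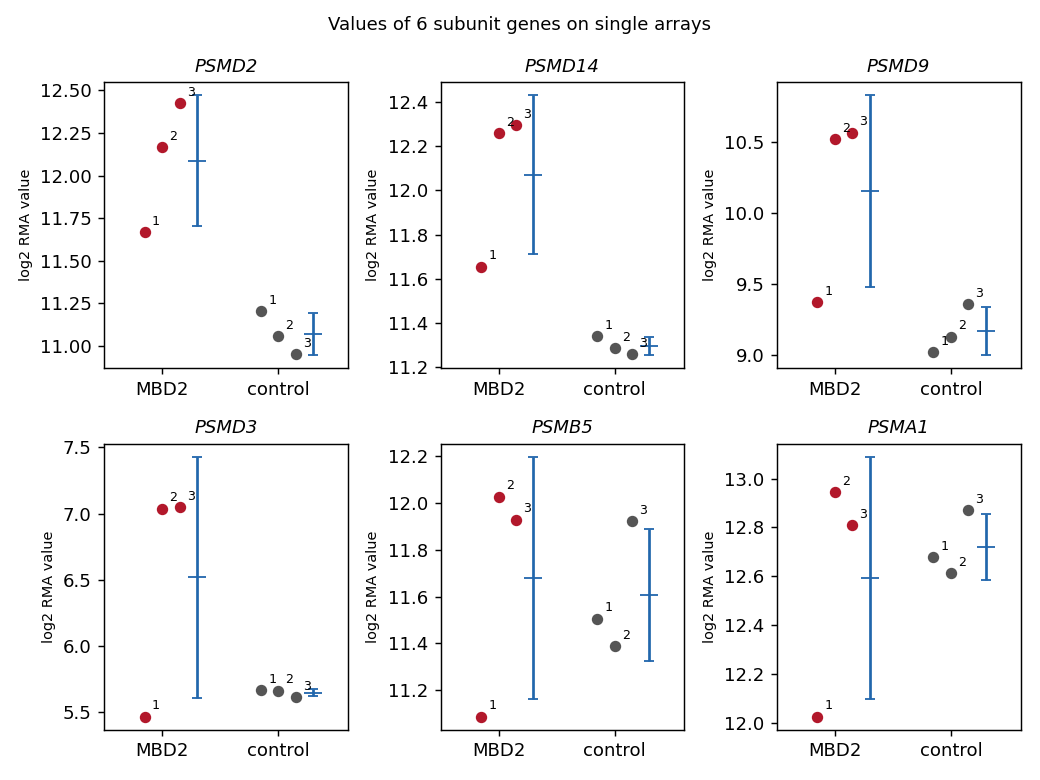
Log2 RMA value on each array (numbered points) with group mean and SD (n = 3, blue) of 6 proteasome genes, MBD2 left and control right in each panel, each panel with its own axis that does not start at 0. The groups of PSMD2, PSMD14 and PSMD9 do not overlap, and in PSMD3 MBD2 array 1 (5.47) is below and MBD2 arrays 2 and 3 (7.04 and 7.05) are above all control arrays.

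Most other probe sets of a member had the same sign as the one used. Of the 35 members, 20 had more than 1 probe set, and 26 of the 32 other probe sets had the same sign of difference as the one used. Among the 26 with a mean of at least 5, 25 did. Averaging all probe sets changed the sizes, with 1.09 for PSMD11 against 0.49 from its brightest probe set, 0.38 against 0.72 for PSMD10 and 0.49 against 0.08 for PSMC2, and called 0 members.

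Without MBD2 array 1, 18 of 35 members were called higher by limma, where 9.62% of all genes were, and 0 lower (5.68%). They were PSMA3, PSMA5, PSMA7, PSMB1, PSMB2, PSMC1, PSMC3, PSMC4, PSMC6, PSMD2, PSMD3, PSMD6, PSMD9, PSMD10, PSMD11, PSMD12, PSMD14 and PSME3. With control array 3 left out as well, 23 members were called higher (16.7% of all genes) and 0 lower (10.7%). Leaving out any other single array called 0 members in either direction, in fits that called few genes at all (0.0101% to 1.55% of all genes higher and 0.086% to 1.95% lower). These arrays were left out because they stood apart, so the counts describe the remaining arrays and are no test of MBD2 cells.

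Other measures also set MBD2 arrays 2 and 3 apart, while on them MBD2 array 1 lay near or among the control arrays. The 18 probe sets for hybridization controls, bacterial transcripts added to each sample, averaged 10.96, 9.94 and 10.01 on MBD2 arrays 1 to 3, against 11.16, 11.33 and 11.00 on control arrays 1 to 3, and were thus lowest where proteasome signals were highest. The difference between the 3′ and 5′ probe sets of GAPDH, a measure of RNA integrity, was 1.84, 1.49 and 1.52 log2 units in MBD2 cells, against 2.03, 2.52 and 1.83 in control cells, and that of ACTB 3.93, 3.45 and 3.44, against 3.95, 4.57 and 3.62. The part of these measures in the proteasome values was not tested.

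Genes of mitosis gave a second array-by-array pattern. The 25 mitosis genes had a median log2 fold change of 0.85 and 0 were called, and their median difference from the control mean was -0.59, 1.67 and 1.46 on MBD2 arrays 1 to 3, against 0.53, 0.47 and -1.03 on control arrays 1 to 3. MBD2 array 1 had the lowest median of the MBD2 arrays for mitosis and proteasome genes, but its place among the controls differed. It lay below every control array at 3 of the 25 mitosis genes and at 25 of the 35 proteasome members (38.1% of all genes). Its mitosis median lay above that of control array 3. Control array 3 was low for mitosis genes and was above control arrays 1 and 2 at 24 of 35 proteasome members (45.5% of all genes). The part of proliferation in the proteasome values was not tested.

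Some fibroblast markers also set MBD2 array 1 apart. The mean over the 7 fibroblast markers was 8.32, 6.33 and 6.65 on MBD2 arrays 1 to 3, against 6.91, 6.93 and 6.52 on control arrays 1 to 3, and 3 of the 7 were highest on MBD2 array 1: DCN read 12.57, 7.59 and 8.54, against 9.74, 9.60 and 8.43, COL3A1 read 8.90, 4.99 and 4.92, against 5.28, 5.21 and 4.84, and LUM read 9.63, 4.03 and 6.27, against 7.48, 8.03 and 7.08. The other 4 did not set it apart, with COL1A1 at 10.60, 10.61 and 9.75 in MBD2 cells, against 9.35, 9.07 and 8.69 in control cells, COL1A2 lowest of the MBD2 arrays there, and PDGFRA and PDGFRB between 5.05 and 5.58 on all 6 arrays. The part of these genes in the low proteasome values of MBD2 array 1 was not tested. Of the 6 leukocyte markers 4 were measured, with means of 5.72, 5.6 and 5.61, against 6.36, 6.28 and 6.71, and 1 of them, CD14, was called lower (log2 fold change -3.07).

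**Figure D4:**
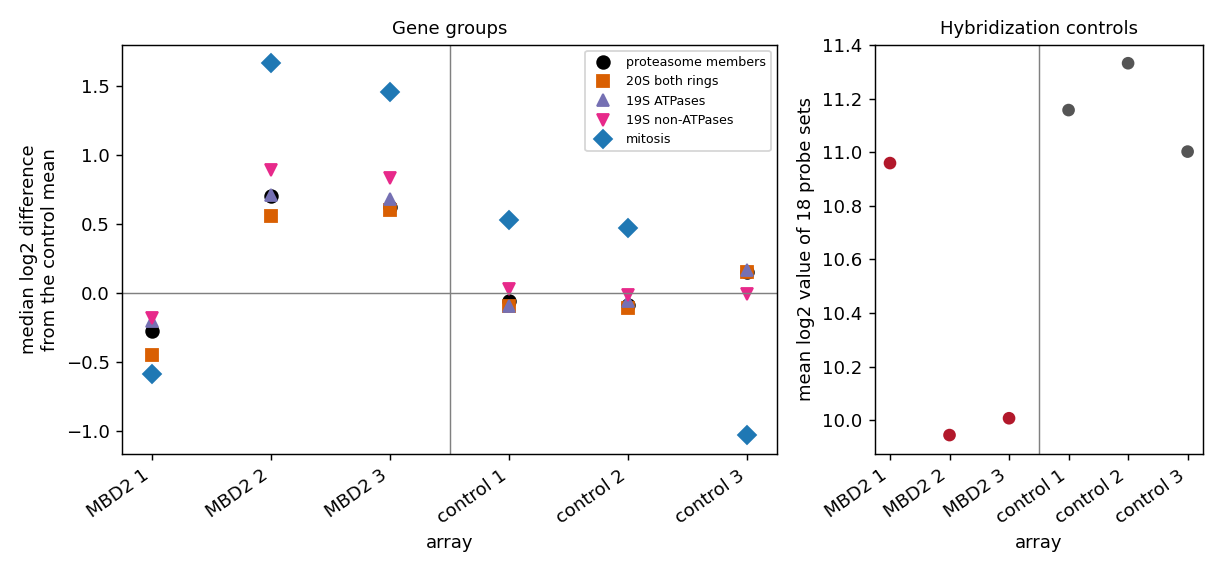
Left panel, median log2 difference from the control mean on each array for the proteasome genes, their subcomplexes and the mitosis genes; right panel, mean log2 value of the 18 hybridization control probe sets on each array. MBD2 arrays 2 and 3 have the highest proteasome and mitosis medians and the lowest hybridization controls (9.94 and 10.01).

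The genes around the proteasome were read from 7 lists of 52 genes, of which 45 were measured by a probe set with 1 symbol. By limma 1 was called higher (1.25% of all genes) and 0 lower (1.5% of all genes). The median log2 fold change over the 45 was 0.35. The called gene was NQO1, a quinone reductase induced by NFE2L2, which read 13.70, 13.76 and 13.59 in MBD2 cells, against 12.22, 11.80 and 11.81 in control cells. Its 3 MBD2 arrays lay close together and far above the controls, with a difference of 1.74 ± 0.15 (3.34-fold, adjusted p 0.0101, limma) and about the same level on MBD2 array 1 as on the other MBD2 arrays. The call was lost without control array 2, MBD2 array 2 or MBD2 array 3 (adjusted p 0.0776, 0.0505 and 0.0617, limma), with the replicate block (0.0573) and with near-identical arrays averaged (0.285). The name of the NQO1 probe set used marks shared sequence. Without such probe sets, 0 of the 37 pathway genes then measured were called higher (1.10% of all genes).

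The 7 measured NFE2L2 targets had a median log2 fold change of 0.89, and 4 had MBD2 arrays wholly above the controls (10.4% of all genes). GCLC and HMOX1 had negative differences, -0.47 and -0.41. The 7 measured regulators of proteasome transcription had a median of -0.31 and none was called. NFE2L1 read 11.68, 10.97 and 10.94 in MBD2 cells, against 11.94, 11.74 and 10.84 in control cells, a difference of -0.31, and NFE2L2 differed by -0.40. NFYB, a subunit of NF-Y, read 10.32, 9.56 and 9.65, against 9.32, 9.15 and 8.45, and its difference of 0.87 had an adjusted p of 0.214 (limma). NFYB was highest on MBD2 array 1. The other NF-Y subunits differed the other way, NFYA by -0.60 and NFYC by -0.36. The part of these regulators in the proteasome values was not tested.

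All 6 assembly chaperones were measured and 0 were called, with a median of 0.33. PSMG1, which with PSMG2 starts the alpha ring, read 8.78, 11.38 and 11.04 in MBD2 cells, against 9.45, 9.37 and 9.47 in control cells, and differed by 0.97 (adjusted p 0.504, limma). It repeated the pattern of the subunits, with MBD2 array 1 under the controls and the other MBD2 arrays above. POMP, which joins the beta subunits, differed by 0.31. Of the 9 associated factors 0 were called, and ADRM1, a ubiquitin receptor of the base, read 6.79, 8.59 and 8.41, against 6.91, 6.49 and 7.17, and differed by 1.07 (adjusted p 0.33, limma).

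Of the 9 genes of ubiquitin supply and unfolding, 6 were measured, all differed by more than 0, with a median of 0.46, and 0 were called. UBA1, the main enzyme that activates ubiquitin, read 9.41, 10.71 and 10.64 in MBD2 cells, against 9.52, 9.11 and 8.87 in control cells, and differed by 1.09 (adjusted p 0.221, limma). UBB, a ubiquitin gene, and VCP, the unfoldase that extracts ubiquitinated proteins, differed by 0.47 and 0.40. Of the 6 ubiquitin shuttles 4 were measured, with a median of 0.05, and UBQLN4 read 7.80, 8.82 and 8.60, against 8.71, 8.71 and 9.31, a difference of -0.50.

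The 6 immunoproteasome and peptide transport genes had a median of -0.37 and 0 were called. TAP2 and TAP1, the peptide transporter, differed by -0.93 and -0.62, ERAP1, which trims peptides, by -0.79 and TAPBP by -0.13. ERAP1 read 6.82, 7.25 and 7.22 in MBD2 cells, against 8.13, 7.84 and 7.70 in control cells, without overlap, with an adjusted p of 0.0869 (limma). PSMB9, which replaces PSMB6 in the immunoproteasome, read 7.10, 8.69 and 8.50 in MBD2 cells, against 6.94, 6.84 and 7.22 in control cells, and differed by 1.09 (adjusted p 0.261, limma). PSMB8, which replaces PSMB5, read 9.23, 10.14 and 9.54, against 9.22, 9.20 and 9.91, and differed by 0.19. POMP, UBB, VCP, PSMB8, NFE2L1, NFE2L2, NFYA, NFYC, GCLC, HMOX1, TAP1, TAP2, TAPBP, ERAP1, CD14 and the fibroblast markers were singled out after their values were seen.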

How the data were processed

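RNA from control and MBD2-infected MCF-10A cells had been hybridized to Affymetrix HG-U133 Plus 2.0 arrays, 3 per group. The authors deposited log2 values for 54675 probe sets, normalized by RMA (affy, no version in the submitters' processing notes). Of these probe sets 41091 carried 1 gene symbol, 1801 several and 11721 none, by the platform annotation. Only probe sets with 1 symbol were used, the brightest per gene (mean over the 6 arrays), for 19775 genes.

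Differences are MBD2 minus control on the log2 scale from limma 3.58.1 (lmFit and eBayes) in R 4.3.3, with Benjamini-Hochberg adjustment over all genes. A call needed an adjusted p under 0.05 and a fold of at least 1.5. The fit was tested on simulated data. Arrays give no counts, so their number limits the precision, and levels were not compared between probe sets.

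Values on every array were given for MBD2, the called members, the 6 members with the largest and the 6 with the smallest difference, PSMB5, PSMB6, PSMB7, PSMB10, PSME1, PSME3, PSMD10 and PSMD14, the members whose groups did not overlap, and, of each pathway list, the called genes and the gene with the largest absolute difference. The members and lists were chosen with earlier results of these data known. Alternatives covered probe set choice, centring on housekeeping genes, dropping genes with a mean under 5, eBayes with trend and robust settings, another quantile normalization, a replicate block, the methods' ratio rule, leaving out each array, averaging near-identical arrays (control arrays 1 and 2, MBD2 arrays 2 and 3) and leaving out both arrays that stood apart. A block for the hybridization control level was added after seeing the data. Promoter windows are RefSeq sequences, searched on both strands in 250 bases before each start.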

Additional observations from a re-analysis of the deposited data

How the results depend on the processing

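Members called higher numbered 0 in the reported fit, 0 to 18 with 1 array left out (18 without MBD2 array 1), 23 without control array 3 and MBD2 array 1, and 1 by the methods' ratio rule. Members called lower numbered 0 under each of these. Deviations of same-numbered MBD2 and control arrays from their group means correlated at 0.17, -0.27 and 0.21, and MBD2 array 1 correlated best with control array 2 (0.29). With 1 array standing apart in each group, these values cannot show whether equal replicate numbers mark pairs. With the replicate block 0 members were called, and of all genes 12 were higher and 51 lower, against 248 and 296 without it. With near-identical arrays averaged, 0 of all genes were called.

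The median log2 fold change of the members ranged from 0.18 to 0.66 with 1 array left out, was 0.69 without control array 3 and MBD2 array 1, and fell below the reported 0.34 with near-identical arrays averaged (0.14), without shared-sequence probe sets (0.17) and after centring on housekeeping genes (0.21). A block for MBD2 arrays 2 and 3, low in hybridization controls and chosen after seeing the data, gave -0.27, which by construction is the median of MBD2 array 1 alone against the controls and adds no information. Pathway genes called higher numbered 1 in the reported fit (1.25% of all genes) and 3 with all probe sets averaged (0.991%). They numbered 0 without shared-sequence probe sets (1.10%), with the replicate block (0.0607%) and with near-identical arrays averaged (0%). They numbered 18 without control array 3 and MBD2 array 1 (16.7%) and 4 by the methods' rule (3.47%). With 1 array left out they numbered 0 to 15, the 15 without MBD2 array 1 (9.62%). Pathway genes called lower numbered 0 in the reported fit (1.5% of all genes) and 1 after centring on housekeeping genes (1.87%). They numbered 7 without control array 3 and MBD2 array 1 (10.7%). With 1 array left out they numbered 0 to 3, the 3 without MBD2 array 1 (5.68%). Calls over all genes thus also rose in the fits without MBD2 array 1. The cause of these changes was not tested.

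Some differences turned sign, most of them small in the reported fit, but PSMD4 (0.57) and PSMB1 (0.39) among them. Without control array 3 and MBD2 array 1 they were 0.23 for PSMA1, 0.0592 for PSMA2, 0.23 for PSMA4, 0.12 for PSMA8, 0.37 for PSME1 and 0.000261 for UBQLN4. Without shared-sequence probe sets they were -0.0148 for PSMB1 and -0.19 for PSMD4, each on a dim probe set. Brighter probe sets of these genes that were not used kept the sign, at 0.59 for PSMB1 and 0.55 and 0.67 for PSMD4. With near-identical arrays averaged they were -0.11 for PSMB10, -0.0174 for PSMB3, -0.15 for PSMB5, -0.00923 for PSMC2, -0.0161 for PSMC3, -0.12 for PSMD5, -0.23 for PSMD8 and -0.0257 for PSMB8. Centring on housekeeping genes, which moved the median of all genes to -0.16, gave -0.0624 for PSMB5, -0.0569 for PSMC2, -0.0698 for PSMD5 and -0.0762 for PSMD8, and averaging all probe sets gave -0.0487 for PSMD5. With 1 array left out the differences ran from -0.30 to 0.16 for PSMA1, -0.19 to 0.24 for PSMA4, -0.11 to 0.11 for PSMA8, -0.0757 to 0.78 for PSMB10, -0.0307 to 0.54 for PSMB3, -0.0985 to 0.37 for PSMB5, -0.0572 to 0.43 for PSMB8, -0.0460 to 0.76 for PSMC3, -0.0854 to 0.26 for PSMD5, -0.15 to 0.45 for PSMD8 and -0.22 to 0.15 for PSME1.

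With 3 arrays per group, and with pairs of arrays nearly alike within each, the spread rests on few independent values. Dim probe sets such as those of PSMA8 limit what can be read.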
